A study of Mus musculus with 4 samples.

Results

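Tnf, the gene of tumour necrosis factor, was followed together with the genes that receive the cytokine, release it from the cell surface and set the lifetime of its mRNA. The 8 genes are Tnf, the receptors Tnfrsf1a and Tnfrsf1b, the shedding protease Adam17, the mRNA-decay factors Zfp36, Zfp36l1 and Zfp36l2, and the mRNA-binding protein Elavl1. They were taken by symbol from the transcript accessions given on the array and are 8 of 22911 genes named there, read by 12 of 56605 RNA probes. RAW264.7, a macrophage-like mouse cell line, received either a non-targeting control siRNA or siRNA against Ruvbl2, and was exposed either to DMSO or to LPS (bacterial lipopolysaccharide). This gives 4 groups: control siRNA with DMSO, control siRNA with LPS, Ruvbl2 siRNA with DMSO, and Ruvbl2 siRNA with LPS. All cells were unmodified apart from the siRNA, which was delivered by electroporation or a transfection reagent without a record of which sample had which, and they were analysed 2 days later. How much LPS was used, and for how long, is not stated in the labels, and the target is spelled Rvbl2 in the sample titles and RUVBL2 in the series text. Each group is 1 array, so no difference has a replicate check and no p-value is given.

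Macrophages make TNF as a membrane protein, which the metalloprotease ADAM17 cuts to release the soluble cytokine. TNF then acts through a widely expressed death-domain receptor encoded by Tnfrsf1a and a second receptor encoded by Tnfrsf1b, found mainly on immune cells. The Tnf transcript carries AU-rich elements that bind tristetraprolin, the product of Zfp36, and its relatives, which recruit deadenylases, while the Elavl1 product HuR binds similar elements and is best known for stabilising such mRNAs. LPS is a classical inducer of both Tnf and Zfp36 in macrophages, and RUVBL2 is an ATPase found in chromatin-remodelling and other assemblies.

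Between 54.1% and 55.0% of the RNA spots of an array were well above background, and 0 spots were saturated. A level below is a probe's log2 processed signal relative to the 75th percentile of RNA probes on its array, so that 0 is the 75th percentile of that array, and levels of different probes are not compared. The brighter Ruvbl2 probe had levels of 5.01 with control siRNA and DMSO, 4.92 with control siRNA and LPS, 4.67 with Ruvbl2 siRNA and DMSO, and 4.51 with Ruvbl2 siRNA and LPS. Its log2 difference between siRNAs was -0.34 in DMSO and -0.40 in LPS, 79.2% and 75.7% of the control siRNA array. Of all RNA probes compared, 9.61% in DMSO and 10.1% in LPS were at least as low. The dimmer Ruvbl2 probe differed by -0.55 and -0.12. With the technical SD defined below, -0.55 was 3.86 SDs by one estimate and 0.97 by the other, and -0.12 lay within 1 SD by both. Of 11 macrophage markers, 10 were well above background on every array, all but Mertk, and of 5 T cell markers Cd3d, Cd3e and Lck were. So were the neutrophil markers Camp and Elane, and Pax5 (B cell), Tpsb2 (mast cell), Col1a2 (fibroblast) and Pecam1 (endothelial), but no epithelial marker. The control siRNA arrays lay in one row of the slide and the Ruvbl2 siRNA arrays in the other, so the siRNA and the slide row cannot be told apart. In RNA from whole cultures, fewer cells that express a gene and less RNA per cell cannot be told apart either.

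Tnf mRNA was about 4-fold higher with LPS under either siRNA. Its brighter probe, A_51_P385099, had levels of 3.47 with control siRNA and DMSO, 5.44 with control siRNA and LPS, 3.46 with Ruvbl2 siRNA and DMSO, and 5.46 with Ruvbl2 siRNA and LPS. Both LPS arrays were high, both DMSO arrays low, and within each pair the levels were close. The LPS difference was 1.97 (3.92-fold) with control siRNA and 2.00 with Ruvbl2 siRNA. The siRNA difference was -0.01 in DMSO and 0.02 in LPS, and the difference of the LPS effects was 0.03. The second Tnf probe, A_55_P2740937, reads the same transcript and had levels of 2.21, 4.23, 2.21 and 4.28 in the same order, with LPS differences of 2.02 and 2.06. To set these sizes against the measuring error, a technical SD was estimated from probes printed in several places on an array. It covers spot-to-spot error only, leaves out cultures, RNA and labelling, and rests on few repeated probes near most members' levels, as given for Tnfrsf1b below. For the brighter Tnf probe it was 0.09 for a difference of 2 arrays, so both siRNA differences lay within 1 technical SD. With 1 array a group this does not show that Tnf was unaffected. Scaled on the spike-in RNAs in place of the 75th percentile, Tnf stood -0.32 between siRNAs in DMSO, where the median of all probes compared stood at -0.28, and 0.03 in LPS. On that scale its LPS difference was 2.02 with control siRNA and 2.37 with Ruvbl2 siRNA, and the difference of the LPS effects 0.34, where the median of all probes stood at 0.30.

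Of the 12 probes, 4 were 2-fold or more higher with LPS under control siRNA and 0 were lower, beside 4.46% of all RNA probes compared that were higher and 2.41% that were lower. The 4 were both Tnf probes and the single probes of Tnfrsf1b and Zfp36, so they stand for 3 genes. Under Ruvbl2 siRNA again 4 were higher and 0 lower, beside 3.39% and 2.21% of all RNA probes, and they were the same probes. Between siRNAs 0 of 12 passed 2-fold in either direction in DMSO, beside 1.47% of all RNA probes, and 0 of 12 in LPS, beside 2.37%. In the difference of the LPS effects 0 of 12 passed, beside 1.93% of all probes. At background shares this low, a count of 0 of 12 is no result about these genes. At 1.5-fold, 2 of 12 passed between siRNAs in LPS, Zfp36l2 higher and Tnfrsf1b lower, beside 9.85% of all probes, and 1 of 12 in the difference of the LPS effects, Tnfrsf1b, beside 10.1%. The median over the 12 probes was -0.13 and -0.07 for LPS with control and Ruvbl2 siRNA, and 0.04 and 0.05 for the siRNA in DMSO and in LPS, where all probes compared had medians of -0.04, -0.05, 0.03 and 0.01.

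**Figure D1:**
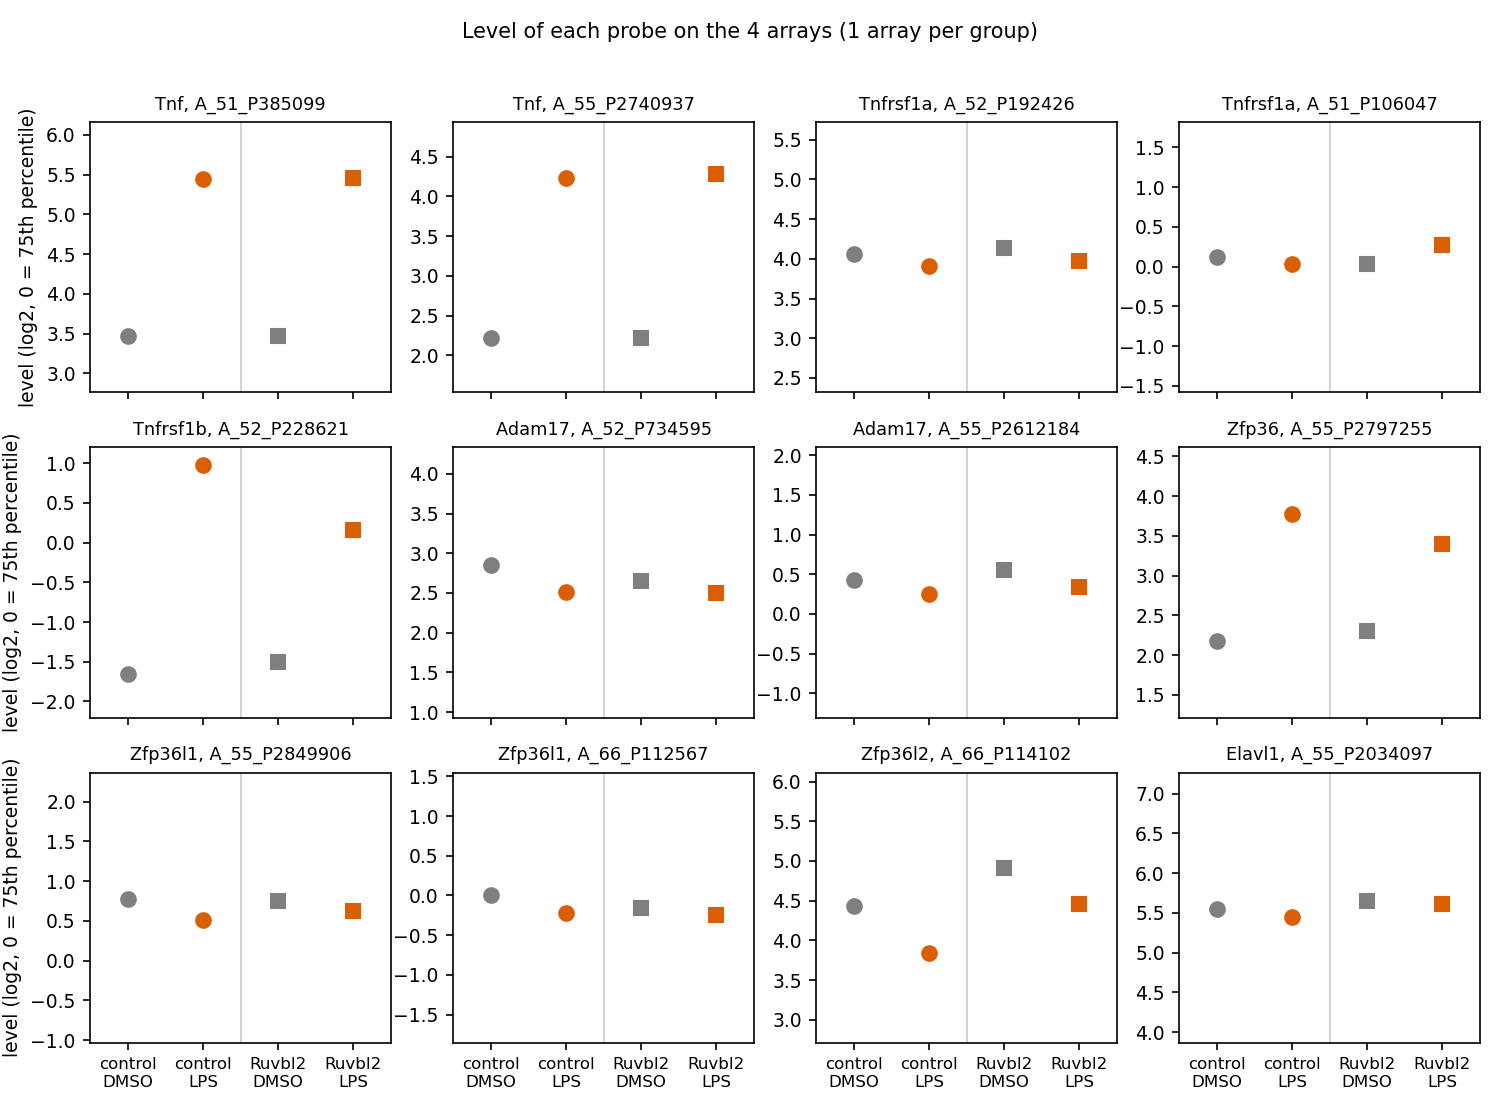
Level of each of the 12 probes on the 4 arrays, as log2 of the signal relative to the 75th percentile of the array (y axis, same span in every panel), by siRNA and treatment (x axis; circles, control siRNA; squares, Ruvbl2 siRNA; grey, DMSO; orange, LPS). Each point is 1 array; the LPS points stand clear of the DMSO points for Tnf, Tnfrsf1b and Zfp36, and the 2 LPS points lie 0.82 apart for Tnfrsf1b and 0.02 apart for the brighter Tnf probe.

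The proximal promoters of the 3 genes that were higher with LPS are shown because these were the members past 2-fold. They are the 250 bases before the annotated start, from RefSeq on build GRCm38.p6, where 7 of the 8 genes matched, all but Zfp36l2. Capitals mark the matches to 6 motifs that were searched on both strands: TATAAA, the kB motif, the AP-1 motif TGANTCA, the cyclic AMP response element TGACGTCA, CCAAT, and the GC box GGGCGG.
Tnf, chr17:35202008-35202257, minus strand: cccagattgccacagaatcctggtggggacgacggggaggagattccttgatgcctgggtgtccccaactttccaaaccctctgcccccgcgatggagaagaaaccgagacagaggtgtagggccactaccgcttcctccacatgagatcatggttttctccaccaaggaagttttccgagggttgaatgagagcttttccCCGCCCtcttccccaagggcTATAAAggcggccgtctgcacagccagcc
Tnfrsf1b, chr4:145246871-145247120, minus strand: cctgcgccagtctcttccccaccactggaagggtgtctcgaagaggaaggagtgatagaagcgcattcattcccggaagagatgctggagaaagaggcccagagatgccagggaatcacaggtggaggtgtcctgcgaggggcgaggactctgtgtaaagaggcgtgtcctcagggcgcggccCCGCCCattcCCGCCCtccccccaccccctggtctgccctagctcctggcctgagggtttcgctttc
Zfp36, chr7:28379229-28379478, minus strand: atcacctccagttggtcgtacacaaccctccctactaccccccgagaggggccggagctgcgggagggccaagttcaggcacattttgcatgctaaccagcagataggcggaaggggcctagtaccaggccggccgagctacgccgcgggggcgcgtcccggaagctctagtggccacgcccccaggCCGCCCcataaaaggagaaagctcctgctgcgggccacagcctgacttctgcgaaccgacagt
The Tnf window held TATAAA 29 bases before the start and a GC box 49 bases before it. The Tnfrsf1b window held GC boxes 67 and 57 bases before the start, and the Zfp36 window held one 63 bases before it. Among 32851 promoter windows of the same length, 12.4% held TATAAA, 32.7% the GC box, 33.8% CCAAT, 6.75% the AP-1 motif, 4.11% the kB motif and 1.55% the cyclic AMP response element. The letters searched for the last 4 motifs were not in these 3 windows, which says nothing of factors that bind there. The motifs were chosen with the promoter sequences on view, and a match describes letters only.

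The receptors behaved differently from each other. Tnfrsf1b, the receptor found mainly on immune cells, had levels of -1.65 with control siRNA and DMSO, 0.98 with control siRNA and LPS, -1.50 with Ruvbl2 siRNA and DMSO, and 0.16 with Ruvbl2 siRNA and LPS. Both LPS arrays were above both DMSO arrays, and of the LPS arrays the one with Ruvbl2 siRNA was the lower. The LPS difference was 2.63 (6.19-fold) with control siRNA and 1.66 (3.17-fold) with Ruvbl2 siRNA. Ruvbl2 siRNA minus control siRNA came to 0.15 in DMSO but -0.82 in LPS, 1.77-fold lower, and the difference of the LPS effects was -0.97. Whether these last differences exceed the spot-to-spot error depends on how that error is estimated. A curve of variance against level, which was adopted after the differences had been seen, puts -0.82 at 6.46 technical SDs and -0.97 at 5.08. The estimate computed first, from the 30 repeated probes nearest in level, puts them at 1.62 and 1.28. The curve was adopted because 10 repeated or spike-in probes in all lay between levels of -2 and 5. The 30 nearest ones therefore mix very dim with very bright probes, and neither estimate is well supported at the level of Tnfrsf1b. The same holds for the other members, as all but Elavl1 lay between these levels on the control siRNA DMSO array. The LPS differences of Tnfrsf1b lay beyond 2 technical SDs by both estimates. Over the processing alternatives its siRNA difference in LPS ranged from -0.83 to -0.66, and that in DMSO changed sign, to -0.17, with spike-in scaling. The difference of the LPS effects ranged from -0.98 to -0.65, the latter with spike-in scaling.

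Tnfrsf1a, the death-domain receptor, stayed within a narrow range. Its brighter probe, A_52_P192426, had levels of 4.06, 3.91, 4.13 and 3.97 in the order control siRNA with DMSO, control siRNA with LPS, Ruvbl2 siRNA with DMSO, and Ruvbl2 siRNA with LPS. The arrays spanned 0.22, which is more than 2 technical SDs of 0.09 by the variance curve described for Tnfrsf1b. No neighbours in the order of levels were more than 2 technical SDs apart by that curve. The dimmer probe, A_51_P106047, had levels of 0.12, 0.04, 0.03 and 0.28. The 2 probes disagreed on the LPS difference with Ruvbl2 siRNA, at -0.16 for the brighter and 0.24 for the dimmer. The value of the brighter probe was 1.93 technical SDs by the curve and 2.20 by the 30 nearest probes, and it turned to 0.20 with spike-in scaling. That of the dimmer probe was 1.71 and 0.54 technical SDs, and it rose to 0.61 with spike-in scaling. Between siRNAs in LPS the dimmer probe stood at 0.24. Its difference of the LPS effects was 0.32, or 0.64 with spike-in scaling.

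Adam17, which encodes the sheddase, stayed under 2-fold in every comparison. Probe A_52_P734595 had levels of 2.86, 2.51, 2.66 and 2.51 in the order control siRNA with DMSO, control siRNA with LPS, Ruvbl2 siRNA with DMSO, and Ruvbl2 siRNA with LPS, so that the control DMSO array was the highest. Its LPS difference was -0.35 with control siRNA, beyond 2 technical SDs by both estimates, and -0.15 with Ruvbl2 siRNA. Of all RNA probes compared, 20.7% were at least as low as -0.35 under control siRNA. Probe A_55_P2612184 had levels of 0.43, 0.25, 0.56 and 0.34 and LPS differences of -0.18 and -0.22. Between siRNAs in DMSO the first probe stood at -0.20, 2.34 technical SDs by the curve and 2.12 by the 30 nearest probes, while the second stood at 0.13, within 1 SD by both. In that comparison 19.1% of all RNA probes were at least as low as -0.20. The LPS differences with Ruvbl2 siRNA turned positive under spike-in scaling for both probes, at 0.22 and 0.15. Of 18 genes listed for TNF shedding and cleavage, 15 could be compared for LPS under control siRNA, with 3 higher past 2-fold and 1 lower, where 5.73% and 2.2% of all genes were. Timp1, a secreted metalloprotease inhibitor, was 10.4-fold higher, and the iRhom genes Rhbdf2 and Rhbdf1, whose products carry ADAM17 to the cell surface, were 2.26-fold and 2.08-fold higher, Rhbdf1 no longer past 2-fold with normexp and quantile normalization. Under Ruvbl2 siRNA 2 were higher and 1 was lower, beside 4.14% and 2.07% of all genes: Timp1 was 6.70-fold and Rhbdf1 2.26-fold higher, and the inhibitor Timp2 was 2.94-fold lower. Timp2 was also the lower gene under control siRNA, where its LPS array was not well above background and the log2 difference, -1.62, is a bound. Between siRNAs 1 of 15 genes compared passed 2-fold in DMSO, where 1.55% of all genes did. In LPS 1 of 15 was higher and 0 lower, beside 1.06% and 1.46% of all genes. Both times the gene was Timp2, 2.29-fold higher in DMSO and, as a bound, 1.26 higher on the log2 scale in LPS. Its probe is dim: with normexp and quantile normalization its measured differences no longer passed 2-fold, nor did they as the mean of its probes, and with spike-in scaling the DMSO one did not. The median of the shedding list for LPS was 0.03 and 0.01 with control and Ruvbl2 siRNA, beside 0.00 and -0.03 over all genes.

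Zfp36, whose product tristetraprolin promotes decay of Tnf mRNA, was higher with LPS on both arrays that received it. Its levels were 2.18 with control siRNA and DMSO, 3.78 with control siRNA and LPS, 2.30 with Ruvbl2 siRNA and DMSO, and 3.40 with Ruvbl2 siRNA and LPS. The LPS arrays stood apart from the DMSO arrays, and of the LPS arrays the one with Ruvbl2 siRNA was lower. The LPS difference was 1.60 (3.03-fold) with control siRNA and 1.10 (2.14-fold) with Ruvbl2 siRNA. The siRNA difference was 0.12 in DMSO, or -0.19 with spike-in scaling, and -0.38 in LPS. The latter was 4.48 technical SDs by the curve and 5.22 by the 30 nearest probes, and it ranged from -0.39 to -0.38 over the processing alternatives. In that comparison 11.03% of all RNA probes were at least as low as -0.38, so a difference of this size was not rare. The difference of the LPS effects was -0.50 and shrank to -0.18 with spike-in scaling. At least as low as -0.50 were 7.71% of all RNA probes compared.

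Because any scaling by a constant cancels in the change of one gene minus that of another, the members were also set beside Tnf. Between siRNAs in LPS, the log2 difference of Zfp36 minus that of the brighter Tnf probe was -0.40, with a technical SD of 0.12 by the curve. In DMSO the same quantity was 0.12, with an SD of 0.14. For Tnfrsf1b it was -0.84 in LPS. The doubt on the technical SD given above holds for all these values.

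The relatives of Zfp36 did not follow it. Zfp36l2 had levels of 4.43 with control siRNA and DMSO, 3.84 with control siRNA and LPS, 4.92 with Ruvbl2 siRNA and DMSO, and 4.46 with Ruvbl2 siRNA and LPS. The Ruvbl2 siRNA array was the higher one under both treatments, and the LPS array the lower one with both siRNAs. The siRNA difference was 0.49 in DMSO and 0.62 in LPS, and the LPS difference -0.59 with control siRNA and -0.45 with Ruvbl2 siRNA. All 4 values were below 2-fold and beyond 2 technical SDs by both estimates. Of all RNA probes compared, 6.4% in DMSO and 4.04% in LPS were at least as high as the siRNA difference. At least as low as the LPS difference were 9.27% with control siRNA and 14.4% with Ruvbl2 siRNA. With spike-in scaling the siRNA difference in DMSO was 0.18 and the LPS difference with Ruvbl2 siRNA was -0.09. Zfp36l1 spanned 0.27 over the 4 arrays with probe A_55_P2849906, at 0.78, 0.51, 0.75 and 0.63, and 0.26 with probe A_66_P112567, at 0.01, -0.22, -0.15 and -0.25, in the order control siRNA with DMSO, control siRNA with LPS, Ruvbl2 siRNA with DMSO, and Ruvbl2 siRNA with LPS. No neighbours in either order were more than 2 technical SDs apart by the curve. The LPS difference of -0.27 with control siRNA for the first probe was 2.23 technical SDs by the curve and 0.76 by the 30 nearest probes.

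Elavl1, which encodes HuR, was nearly level at 5.55, 5.44, 5.65 and 5.61 in the same order of groups. Its 4 arrays spanned 0.21. The siRNA difference in LPS, 0.17, was 1.94 technical SDs by the curve and 2.50 by the 30 nearest probes, so it too depends on the estimate.

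**Figure D2:**
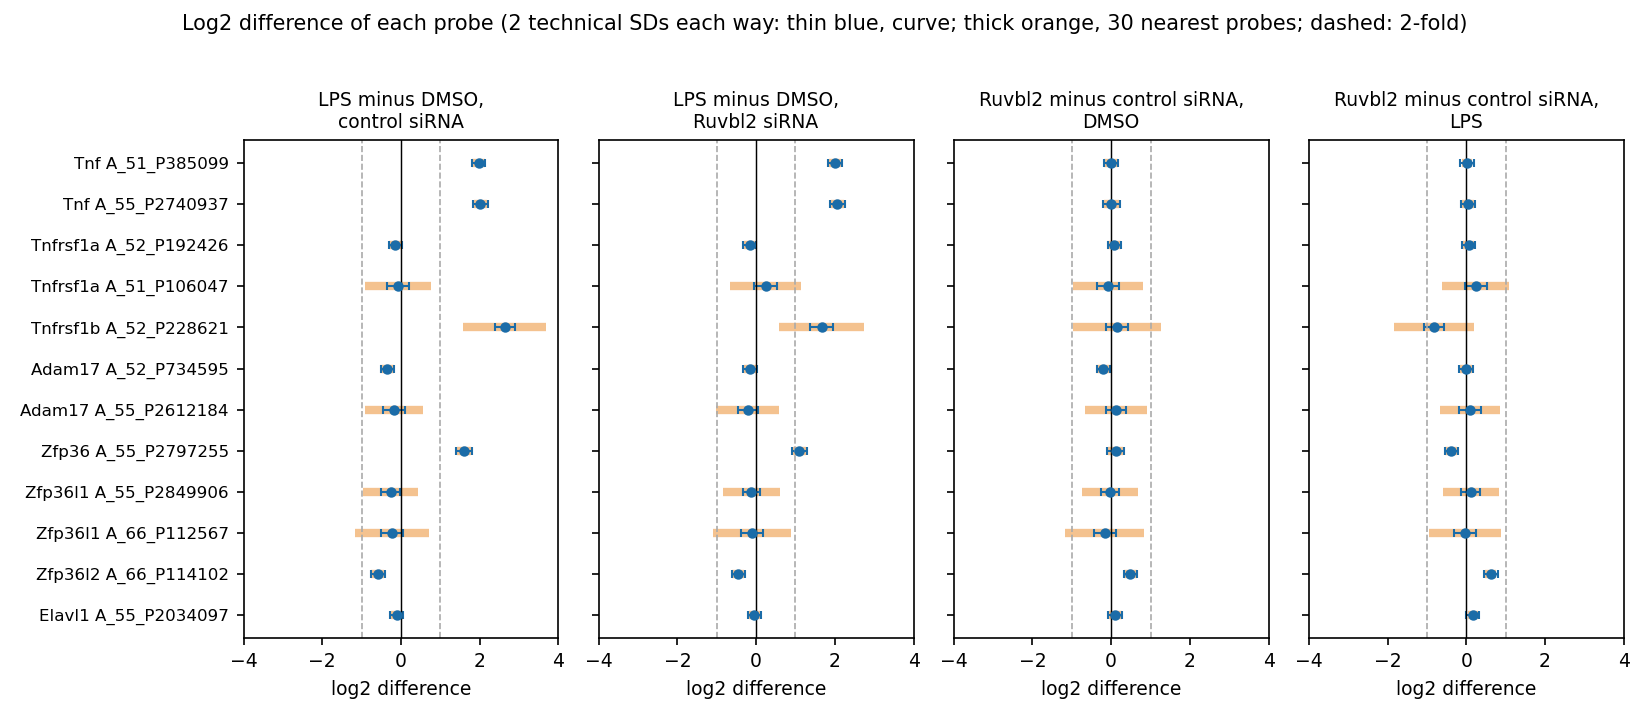
Log2 difference of each of the 12 probes (y axis) in the 4 comparisons (panels; x axis, log2 difference, with 2-fold dashed). Points are differences of 1 array against 1 array; bars reach 2 technical SDs each way, thin blue by the variance curve and thick orange by the 30 repeated probes nearest in level. For Tnfrsf1b between siRNAs in LPS the orange bar crosses 0 and the blue bar does not.

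**Figure D3:**
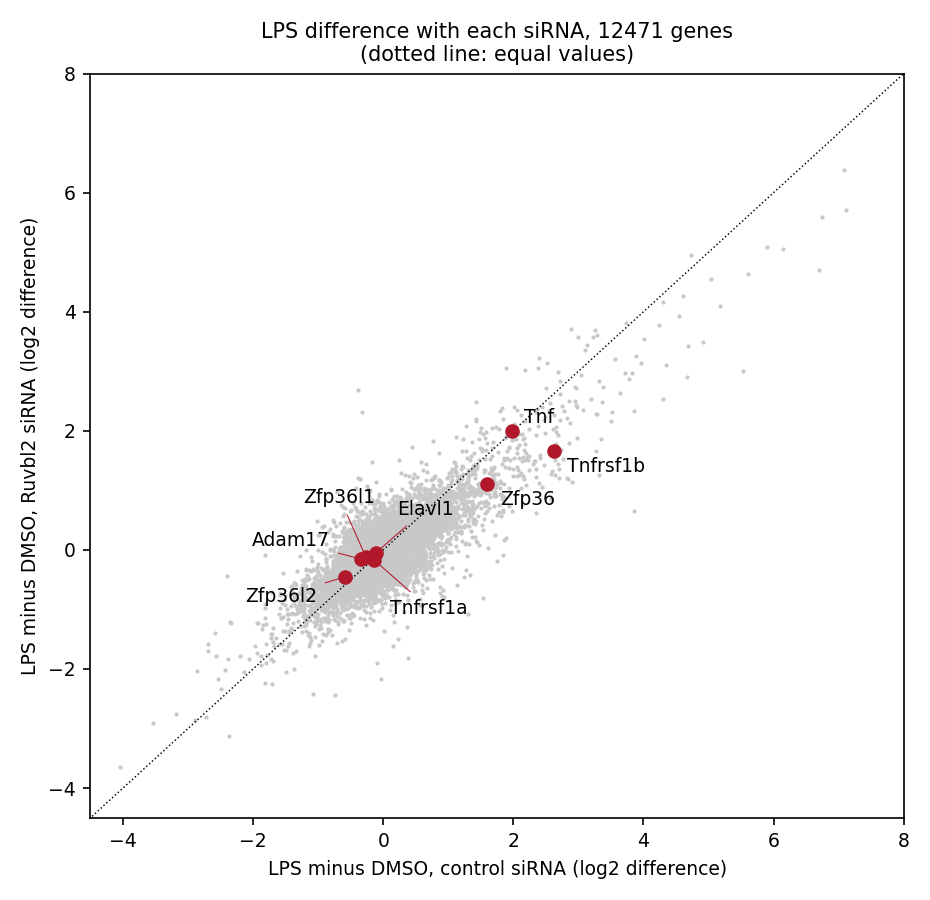
LPS difference under control siRNA (x axis) against that under Ruvbl2 siRNA (y axis), both log2, for 12471 genes (grey) with the 8 genes in red; the dotted line marks equal values. Tnf, at 1.97 and 2.00, lies on the line, and Tnfrsf1b, at 2.63 and 1.66, and Zfp36, at 1.60 and 1.10, lie under it; both axes use the same siRNA-specific arrays as the siRNA comparisons, so they are not independent of them.

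Among 28 other regulators of AU-rich mRNAs, 26 were compared, and 3 were higher past 2-fold with LPS under control siRNA and 0 lower, beside 5.73% and 2.2% of all genes. These were Arid5a, whose product stabilises inflammatory mRNAs, at 7.30-fold, the mRNA-binding protein gene Igf2bp2 at 3.26-fold, and Zc3h12a, which encodes the endonuclease Regnase, at 2.82-fold. Under Ruvbl2 siRNA 1 of 26 passed, Arid5a at 4.36-fold, beside 4.14% of all genes higher and 2.07% lower. Between siRNAs 0 passed in DMSO, where 1.55% of all genes did, and in LPS 0 were higher and 1 was lower, where 1.06% and 1.46% of all genes were: Igf2bp2, 2.96-fold. The call of Zc3h12a was lost with normexp and quantile normalization. The levels of Arid5a were -0.77 and 2.10 with control siRNA and -0.27 and 1.85 with Ruvbl2 siRNA, in DMSO and LPS. Of 33 genes of the deadenylation and decay machinery, 0 passed 2-fold in any comparison. With LPS under control siRNA 5.73% of all genes were higher and 2.2% lower, and between siRNAs 1.55% passed in DMSO, so the siRNA counts are near the background. Their median between siRNAs in LPS was 0.07, beside 0.00 over all genes.

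Of 22 other AU-rich transcripts, listed without Tnf, 18 could be compared for LPS under control siRNA, and 13 were higher past 2-fold and 0 lower, beside 5.73% and 2.2% of all genes. Under Ruvbl2 siRNA 11 of 16 were higher and 0 lower, beside 4.14% and 2.07%. The chemokine genes Ccl2, Cxcl2 and Ccl4 had the largest differences under control siRNA among transcripts measured on both arrays, at 7.08, 4.91 and 4.01, and stood at 6.37, 3.49 and 3.55 under Ruvbl2 siRNA. Il1b and Csf3 were not well above background in DMSO, and their lower bounds under control siRNA were 7.86 and 5.46. Between siRNAs in DMSO, 0 of 12 were higher and 1, Ier3, was 2.21-fold lower, where 1.55% of all genes passed. Between siRNAs in LPS 9 of 17 were lower past 2-fold and 0 higher, beside 1.46% and 1.06% of all genes. Of these 17, 13 were themselves 2-fold or more higher with LPS under control siRNA. Of those 13, 12 were below 0 between siRNAs in LPS, and 8 were lower past 2-fold. The share among LPS-induced genes outside the list was not computed, so a link to AU-rich elements was not tested. The list median was -1.04, beside 0.00 over all genes, and 13 of 17 were lower by more than Zfp36. Il10, Il6 and Csf3, cytokine genes, were 4.63-fold, 4.39-fold and 4.26-fold lower. Levels of Il10 in LPS were -2.07 with control siRNA and -4.28 with Ruvbl2 siRNA. On the latter array the dimmest probe well above background stood at -4.82, so Il10 is near the floor there. Levels of Il6 were -1.41 with control siRNA and -3.54 with Ruvbl2 siRNA, both in LPS, and those of Csf3 were 0.31 and -1.78, while neither gene was well above background in DMSO. Tnf, at 0.02 in the same comparison, lay above 14 of the 17. In the difference of the LPS effects 0 of 10 were higher and 2 lower past 2-fold, beside 0.513% and 1.18% of all genes: Ptgs2, the inducible cyclooxygenase, at -1.52, and Cxcl2 at -1.41. The count of 9 was 7 with normexp and quantile normalization, which ended the call of Il10 among others, and this list was drawn up with earlier results of these arrays known, so its direction is a description.

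**Figure D4:**
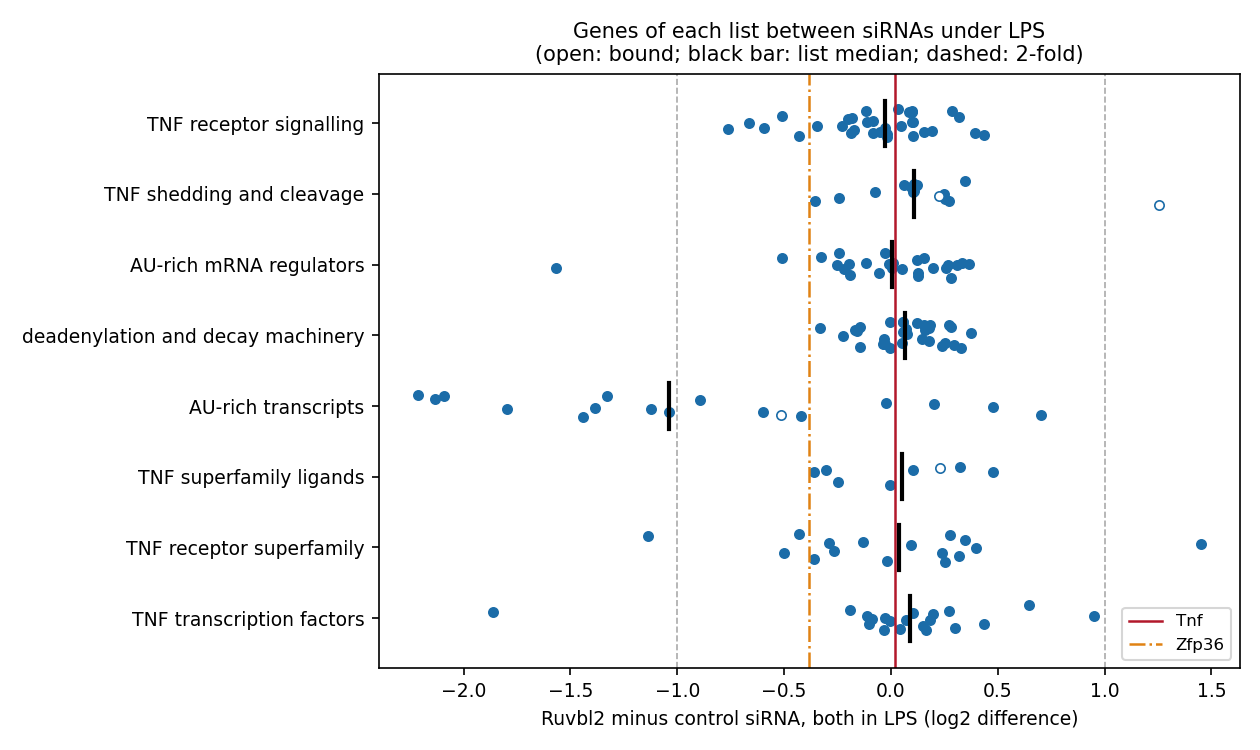
Log2 difference between Ruvbl2 and control siRNA, both in LPS (x axis), for the genes of 8 lists (y axis; 1 point a gene, open where the value is a bound, black bar at the list median, 2-fold dashed). The red line marks Tnf at 0.02 and the dash-dotted line Zfp36 at -0.38. The AU-rich transcripts have the lowest list median, -1.04, and 13 of the 17 compared were 2-fold or more higher with LPS under control siRNA.

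Downstream of the receptors, 1 of 33 genes of TNF receptor signalling was higher past 2-fold with LPS and 0 were lower, under either siRNA. All genes gave 5.73% and 2.2% under control siRNA and 4.14% and 2.07% under Ruvbl2 siRNA, so this share is not above the background. The gene was Mlkl, the executor of necroptosis, 4.12-fold higher under control siRNA and 3.63-fold under Ruvbl2 siRNA. Between siRNAs 0 of 33 passed in DMSO, beside 1.55% of all genes, or in LPS, beside 1.06% higher and 1.46% lower. Birc3, which encodes a ubiquitin ligase of the receptor complex, had levels of 0.87, 1.23, 0.28 and 0.47 in the order control siRNA with DMSO, control siRNA with LPS, Ruvbl2 siRNA with DMSO, and Ruvbl2 siRNA with LPS, and was singled out after its values were seen. Of the other receptors of the superfamily, 3 of 19 were higher past 2-fold and 1 lower with LPS under control siRNA, and 3 of 18 and 1 under Ruvbl2 siRNA, against the same background shares. Tnfrsf9 under control siRNA and Tnfrsf25, the lower one under both siRNAs, are bounds. Fas was 4.42-fold higher with LPS under control siRNA and 2.36-fold under Ruvbl2 siRNA, and Cd40 3.73-fold and 3.78-fold. Eda2r was 2.20-fold higher with LPS under Ruvbl2 siRNA, and between siRNAs in LPS Eda2r was 2.73-fold higher and Tnfrsf9 2.20-fold lower, 1 of 16 each way beside 1.06% and 1.46% of all genes. Among ligands, 1 of 7 was past 2-fold with LPS under control siRNA, Tnfsf15, 2.34-fold higher, beside 5.73% and 2.2% of all genes higher and lower. In the difference of LPS effects 1 of 6 was higher, Tnfsf14 at 1.29, and 0 lower, beside 0.513% and 1.18% of all genes. The probes of Eda2r, Tnfrsf9, Tnfsf15 and Tnfsf14 are dim, and none of these differences passed 2-fold with normexp and quantile normalization. Of the lymphotoxin genes, Lta, the neighbour of Tnf in the genome, had levels of -3.75, -2.91, -3.14 and -3.16 in the same order of groups, and Ltb 4.36, 4.82, 3.98 and 4.52. Of 21 transcription factors listed for Tnf, 20 were compared for LPS under control siRNA. Past 2-fold, 1 was higher and 2 were lower, beside 5.73% and 2.2% of all genes. Ets2 was 2.23-fold higher, and Nfatc1 and Nfatc2 were both 2.32-fold lower (Nfatc2 not past 2-fold as the mean of its probes). With LPS under Ruvbl2 siRNA 0 of 21 were higher and 1 was lower, Ets1, a bound of -1.05, beside 4.14% and 2.07%. Between siRNAs in DMSO 1 of 21 was higher and 1 lower, where 1.55% of all genes passed. These were Ets1, a bound of 1.21 on the log2 scale, and Atf3, 2.27-fold. In LPS 0 of 20 were higher and 1, Atf3, was 3.64-fold lower, beside 1.06% and 1.46%.

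Genes with the pattern most like that of Tnf over the 4 arrays were found by the distance between centred levels, among 11631 genes. The nearest were Pou2f2, a lymphoid transcription factor gene, at 0.12, the carboxypeptidase gene Cpd at 0.12, Dmwd at 0.18, Rnf183 at 0.20 and Ccdc80 at 0.24. Nearest to Zfp36 were the proteoglycan gene Srgn, the ceramide synthase gene Cers4 and the autophagy gene Vmp1, each at 0.06, then Zcchc4 and Fam167a, each at 0.11. Srgn had LPS differences of 1.59 and 1.14 with control and Ruvbl2 siRNA, and Pou2f2 had 1.88 and 1.88. With 4 arrays such likeness is a description of these samples.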

How the data were processed

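Total RNA of 4 samples, 0.1 ug each, was labelled with Cy3 and read on 1-colour Agilent arrays of 1 slide. Per the file headers, Feature Extraction 11.5.1.1 made the deposited intensity values (background-subtracted processed signals); the submitters' processing notes name version 11.0. The series value table equalled these intensities at all 62976 spots of every array.

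From each log2 processed signal the 75th percentile of all RNA probes on that array was subtracted to give the level. Spots of 1 probe were averaged, and control spots and population outliers left out. A gene with several probes is represented in lists by its brightest. A probe was compared where the brighter array was well above background, and a dim partner gave a bound. With 1 array a group no test was made, and sizes past 2-fold were counted. Computation used Python 3.11.15, pandas 2.3.3 and limma 3.58.1, and was tested on simulated data.

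The technical SD comes from 300 RNA probes printed 10 times and 10 spike-in probes, as a non-increasing curve of variance over level. This estimator replaced the mean over the 30 repeated RNA probes nearest in level after the members' differences had been seen. Of 60 member values, 5 lie on the other side of 2 technical SDs by the first estimator, and both are given beside these values. The use of 2 technical SDs for neighbouring levels, and of 1 to pick opposite differences for a closer look, was also set after the differences had been seen. Members and gene lists were chosen with earlier results of these data known.

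Named are all member probes, Ruvbl2, up to the 3 largest measured differences past 2-fold per list, comparison and direction, and the 5 genes nearest in pattern to Tnf and to Zfp36. Alternatives were other background corrections, normalizations, centrings, probe summaries and thresholds. Normexp used the median in place of the mean signal, the column present in the files. Of the array's probes, 32994 had a symbol and 23611 had none.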

Additional observations from a re-analysis of the deposited data

Results flagged for a closer look

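Some siRNA differences had opposite signs in DMSO and in LPS, each by more than 1 technical SD by the variance curve, a condition set after the differences had been seen. With 1 array a group, the difference between the conditions was not tested. Tnfrsf1b stood at 0.15 in DMSO and -0.82 in LPS, and by the 30 nearest probes its DMSO value is 0.26 technical SDs. Zfp36 stood at 0.12 and -0.38. With spike-in scaling the DMSO values of both were negative, at -0.17 and -0.19.

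Among listed genes, the siRNA differences in DMSO and in LPS were 0.50 and -0.24 for Arid5a, 0.29 and -0.42 for Ccl2, and 0.41 and -0.50 for Fas. They were 0.19 and -1.33 for Ptgs2, 0.28 and -0.36 for Timp1, and 0.46 and -0.33 for Zc3h12a. Values ran the other way for Nfatc2, at -0.12 and 0.27, and for Tnfsf14, at -0.81 and 0.48. The LPS differences with control and Ruvbl2 siRNA were of opposite sign for Atf3, at 0.38 and -0.30, and for Tnfsf14, at -0.59 and 0.70. Spike-in scaling lowers the measured siRNA differences in DMSO alike, with the median of all probes at -0.28 in place of 0.03. On that scale the DMSO values of Ccl2, Ptgs2 and Timp1 fall below 0, so their signs are no longer opposite. It raises the LPS differences with Ruvbl2 siRNA, with the median at 0.32, and that of Atf3 is then above 0.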

How the results depend on the processing

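Both Tnf probes kept their LPS differences past 2-fold under every alternative run. For the brighter probe they ran from 1.88 with normexp and quantile normalization under control siRNA to 2.37 with spike-in scaling under Ruvbl2 siRNA, where the second probe reached 2.43. With spike-in scaling the brighter probe stood at -0.32 between siRNAs in DMSO and at 0.34 in the difference of LPS effects, while the median of all probes moved to -0.28 and 0.30, and to 0.32 for LPS with Ruvbl2 siRNA. With 1.5-fold in place of 2-fold, 2 member probes passed between siRNAs in LPS (1 higher, 1 lower) and 1 in the difference of LPS effects, beside 9.85% and 10.1% of all probes. Of the alternative values for Tnf and the member counts, 89 stayed within the technical SD or 1.5 times the count and 6 moved further; no called value changed sign.

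By the 30 repeated probes nearest in level, an estimator of the technical SD kept as an added alternative, the member probes beyond 2 technical SDs numbered 6, 6, 2, 3 and 1 in place of 7, 5, 2, 3 and 2, for LPS with control siRNA, LPS with Ruvbl2 siRNA, the siRNA in DMSO, the siRNA in LPS, and the difference of LPS effects. In LPS the 3 are not the same probes, since Tnfrsf1b left and Elavl1 entered. The share of all RNA probes beyond 2 technical SDs was not computed, so these counts say nothing particular about the members. No paired analysis was possible because each group is 1 array and the labels carry no replicate numbers.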
